A study of Mus musculus with 12 samples.

Results

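Replication-type histone genes encode the core and linker histones that package newly copied DNA. They were taken as every line of the 12 deposited expression tables whose name, or any name joined to it, began with Hist1h, Hist2h, Hist3h or Hist4h. That gave 72 of the 24553 lines in each table. Where a name stood on more than 1 line, the line with the highest mean was kept, which left 65 entries and set aside 7 lines. They comprise 5 genes of the linker histone H1, 17 of H2A, 18 of H2B, 11 of H3, 13 of H4, and 1 line that joins Hist1h1e, Hist1h2be and Hist1h2bf and so mixes an H1 gene with H2B genes. Hist1h2be also has a line of its own.

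The study profiled RNA from the liver of mice labelled as Setd2 knockout (KO) and of wild-type (WT) mice. The protein made from Setd2 trimethylates histone H3 at lysine 36 along transcribed genes. KO tumors and WT tumors, 3 libraries each, came from mice injected with 1 dose of diethylnitrosamine (DEN), a liver carcinogen, at 25 mg/kg when they were 2 weeks old, and taken after 8 months. KO livers and WT livers, 3 libraries each, came from male mice aged 8 months that had no DEN, so tumor and DEN exposure cannot be told apart. Titles of the KO samples read cKO, but the labels give no Cre driver, no deleted exon and no cell type of the deletion. Whether libraries of a group are different animals is not written in the labels, and p-values therefore measure the spread between these libraries. Values are FPKM, which count sequenced fragments relative to transcript length and to the fragments mapped in the library, and differences are on the scale of log2(FPKM + 1), which understates the ratio for weakly listed genes.

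In most animal cells the mRNAs of these genes are made in large amounts while DNA is copied and destroyed afterwards. They are the main class of mRNA without a poly(A) tail: the stem-loop binding protein SLBP holds a short hairpin just after the coding sequence, and the U7 small nuclear ribonucleoprotein directs the cut behind it. Some histone genes are also read past the hairpin to an ordinary polyadenylation signal, and such tailed mRNAs are known from differentiated and non-dividing cells. RNA for these libraries was selected on its poly(A) tail, per the labels' protocols, so the tables report the tailed fraction and what the selection let through.

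By name, 66 genes were found in the GENCODE vM21 annotation on GRCm38, the assembly that mm10 names: 54 on chromosome 13, 8 on chromosome 3, 3 on chromosome 11 and 1 on chromosome 6. Hairpins were searched on the transcript strand as 16 bases with CTTTTCAG in the middle, GG as the first 2 bases and CC as the last 2. They stood in 37 of 78 annotated histone transcripts (47.4%), against 65 of all 141767 annotated transcripts (0.0458%). The hairpins of 7 well-listed genes are shown with the matching 16 bases in capitals, because the distance from the hairpin to the annotated end separates transcripts that stop there from transcripts that run on.
Hist1h1c, chr13:23739507-23739532, plus strand: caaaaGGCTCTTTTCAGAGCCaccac
Hist1h1d, chr13:23555782-23555807, plus strand: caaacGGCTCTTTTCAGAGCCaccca
Hist1h2bg, chr13:23571838-23571863, plus strand: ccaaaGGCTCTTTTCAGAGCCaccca
Hist1h2bj, chr13:22043633-22043658, plus strand: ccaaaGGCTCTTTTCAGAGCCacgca
Hist1h4h, chr13:23531453-23531478, plus strand: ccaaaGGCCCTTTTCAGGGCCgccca
Hist2h2aa2, chr3:96239779-96239804, minus strand: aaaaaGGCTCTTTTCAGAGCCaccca
Hist3h2a, chr11:58955167-58955192, plus strand: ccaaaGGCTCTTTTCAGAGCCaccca

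Of these, 6 carry the same 16 letters, and Hist1h4h differs in the stem. Annotated transcripts of Hist1h1d, Hist3h2a, Hist1h1c and Hist1h2bg run 4884, 1643, 840 and 155 bases past the hairpin letters. Those of Hist1h4h, Hist2h2aa2 and Hist1h2bj end 46, 35 and 23 bases past them. AATAAA or ATTAAA, the letters of a polyadenylation signal, lay in the last 50 bases of the annotated Hist1h1c, Hist3h2a and Hist1h4h transcripts. Hist1h2bc, the most abundant entry, has an annotated transcript of 1156 bases in 2 exons that does not hold the hairpin letters, and several other gene models are little more than the coding sequence.

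The tailed RNA of the family was carried by a few genes. A mean FPKM over 12 libraries of 147 made the H2B gene Hist1h2bc the highest entry, with 46.2% of the summed mean of all 65. The H1 gene Hist1h1c followed with 62.5 and the H2B gene Hist1h2bg with 47.0, and these 3 entries held 80.6% of the sum. The order of these 2 depended on the group. Hist1h1c and Hist1h2bg averaged 94.2 and 33.2 in KO tumors, 83.0 and 58.0 in WT tumors, 41.1 and 39.7 in KO livers. In WT livers they averaged 31.5 and 57.2. The order in WT tumors rested on WT tumor 1, the only one in which Hist1h1c was higher (144 against 53.1). Next came the H2B gene Hist1h2bj (11.99), the H4 gene Hist1h4h (10.3), the H2A genes Hist3h2a (9.13) and Hist2h2aa2 (4.53), the H4 gene Hist1h4i (3.33), the joined entry (3.01) and the H1 gene Hist1h1d (2.46). At the other end, 34 entries reached an FPKM of 1 in 0 libraries, and Hist2h2ab and Hist2h3b are listed at 0 in all 12.

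Testing required that 3 or more of the 12 libraries list an entry at an FPKM of 1 or higher, and 17 of the 65 histone entries qualified. They comprise 2 of 5 H1 genes, the joined entry, 2 of 17 H2A genes, 9 of 18 H2B genes, 3 of 13 H4 genes and 0 of 11 H3 genes. Among H3 genes, which encode the histone that Setd2 modifies, only Hist1h3g reached an FPKM of 1 in any library. The 16 tested entries with 1 name had annotated transcripts of 381 to 7425 bases, median 672.5, and 6 of the 9 with hairpin letters ran more than 100 bases past them. The 48 untested genes had transcripts of 312 to 2863 bases, median 527, and 9 of 21 with the letters ran that far.

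**Figure D1:**
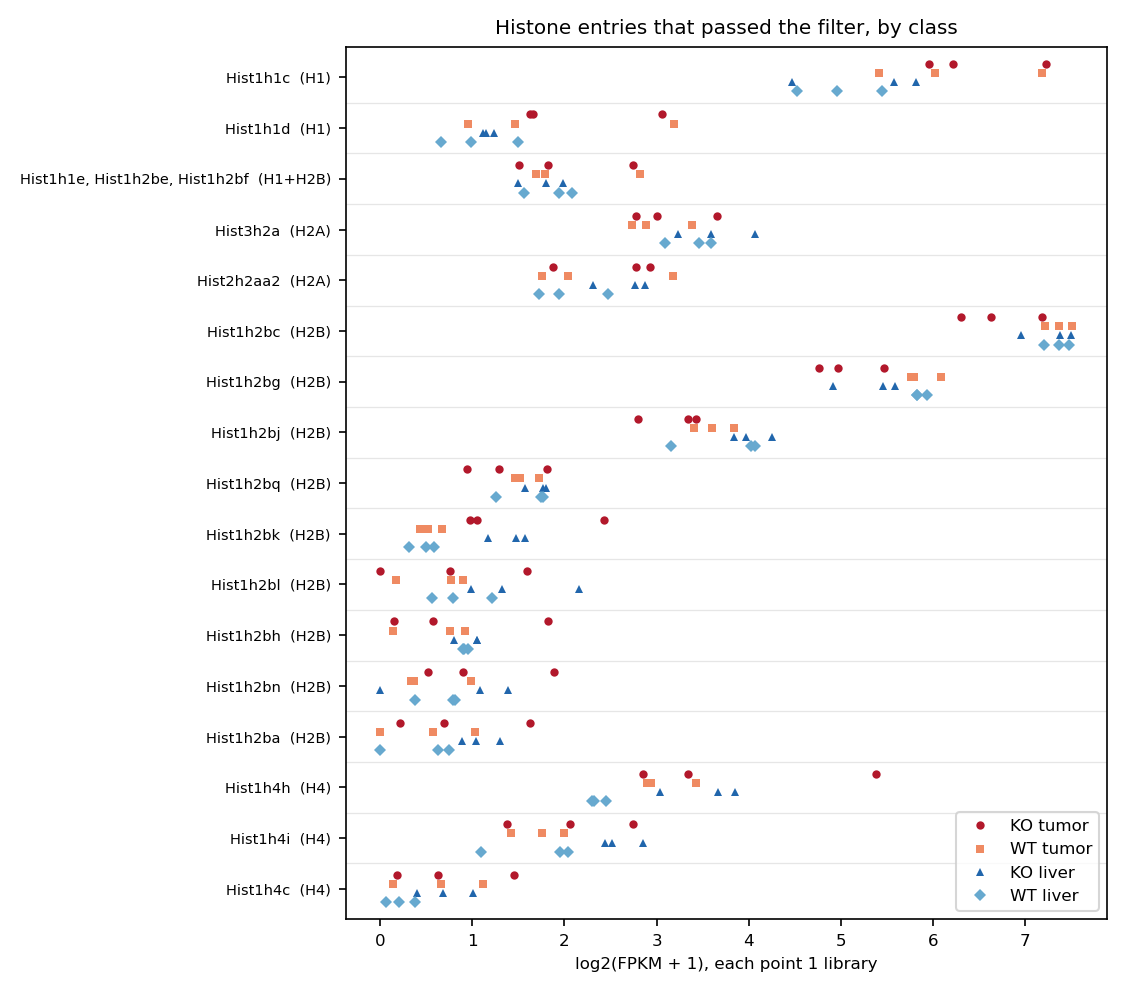
Each point is the log2(FPKM + 1) of 1 library for the 17 tested histone entries, ordered by class, with KO tumors, WT tumors, KO livers and WT livers in different colors. Hist1h2bc, Hist1h1c and Hist1h2bg have the highest means, and KO tumor 2 is the rightmost point for Hist1h4h and Hist1h2bk.

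Genes that share a start region were listed at very different levels. Hist1h2bc and its neighbour Hist1h2ac start 251 bases apart on opposite strands, with mean FPKM of 147 and 0.0389. Hist1h2bg and the H2A gene Hist1h2ae start 176 bases apart and averaged 47.0 and 0.294. Hist1h2bk and Hist1h2ah start 302 bases apart and averaged 1.16 and 0.0676. Of 12 divergent pairs of an H2A and an H2B gene in the annotation, the H2B gene had the higher mean in 10 and the H2A gene in 1, Hist3h2a beside a pseudogene, and 1 pair has a joined line. The count includes Hist1h2an and Hist1h2bp, at 0.00602 and 0.0187. It also includes the repeated names Hist1h2ao, Hist1h2bj and Hist2h2be, each with a line set aside. Hist1h2ao and Hist1h2ah share 93.5% and 90.7% of their stretches of 50 bases with other histone genes, so the split of reads is uncertain. The library kit did not keep the strand. Promoters of 2 of these H2B genes are given from RefSeq on GRCm38.p6. The window of Hist1h2bg ends shortly after the GENCODE gene start, and that of Hist1h2bk ends at it. Capitals mark the CCAAT box, the TATA box letters TATAAA and the octamer ATTTGCAT, each on either strand.
Hist1h2bg, chr13:23571150-23571449, plus strand: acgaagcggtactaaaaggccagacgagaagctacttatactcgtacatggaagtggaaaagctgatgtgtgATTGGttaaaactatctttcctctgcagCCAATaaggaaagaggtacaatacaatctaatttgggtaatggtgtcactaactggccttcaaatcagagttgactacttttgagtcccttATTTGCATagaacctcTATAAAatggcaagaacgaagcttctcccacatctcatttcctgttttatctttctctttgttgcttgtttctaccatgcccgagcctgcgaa
Hist1h2bk, chr13:22035571-22035870, plus strand: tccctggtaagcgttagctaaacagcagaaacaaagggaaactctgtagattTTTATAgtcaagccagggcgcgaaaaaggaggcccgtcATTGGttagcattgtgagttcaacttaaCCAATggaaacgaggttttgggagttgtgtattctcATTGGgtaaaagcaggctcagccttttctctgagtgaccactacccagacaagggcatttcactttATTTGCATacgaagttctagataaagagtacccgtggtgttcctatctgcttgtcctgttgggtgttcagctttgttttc

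Promoters were found for 59 of the histone genes. CCAAT stood in 50 of them, TATAAA in 34 and the octamer in 14. Of 32851 promoters in the table, 37.4% held CCAAT, 13.6% held TATAAA and 1.74% held the octamer. The promoter of Hist1h4h held none of the 3 words in this window.

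Setd2 itself was lower in KO livers, at 1.66, 1.93 and 1.32, against 4.84, 3.84 and 4.70 in WT livers (-1.05 ± 0.14, limma adjusted p = 0.0108). In KO tumors it was 3.14, 2.18 and 1.90, against 4.40, 3.61 and 4.07 in WT tumors (-0.57 ± 0.19, adjusted p = 0.188). FPKM summed to between 423498 and 719538 per library, and read depth is unknown. The summed FPKM of 10 hepatocyte markers was at least 29576 in every library, with Apoa1 the largest part in most, although albumin is listed at 0 in 11 of 12 and Serpina1b, Ahsg and Trf at 0 in WT tumor 1. Of the 10, Cps1 was lower in tumors, at 70.8 to 535, against 564 to 1137 in livers. The sum of the 10 overlapped between tumors and livers of the same genotype. It ran from 29576 to 41643 in KO tumors, against 37411 to 42453 in KO livers. In WT tumors it ran from 37494 to 69856, against 42000 to 46686 in WT livers. KO tumor 2 had the most entries at an FPKM of 1 or more, 11620.

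In normal liver, the H4 gene Hist1h4h and the H2B gene Hist1h2bk were higher in KO than in WT. Of the 17 tested histone entries 2 rose and 0 fell in KO livers, beside 9.33% of all 11671 tested entries that rose and 8.77% that fell. Their median difference was 0.27, against 0.03 over all tested entries. KO livers had higher values without overlap for 5 entries, beside 21.9% of all entries, and lower ones for 1, beside 20.7%. Hist1h2bk is among the 2 and among the 5, and it entered the test only through KO libraries, where it was higher.

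Hist1h4h (chr13:23531050-23531519, plus strand) encodes histone H4. It was listed at 11.7, 13.5 and 7.22 in KO livers, against 4.47, 3.91 and 3.996 in WT livers. Every KO liver lay above every WT liver, and the KO livers spread more widely. The difference was 1.16 ± 0.21 (limma adjusted p = 0.0190).

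Hist1h2bk (chr13:22035870-22036345, plus strand) encodes an H2B. KO livers had 1.98, 1.26 and 1.78, against 0.505, 0.410 and 0.246 in WT livers. The groups did not overlap, with WT livers all under an FPKM of 1. It rose by 0.94 ± 0.14 (adjusted p = 0.0123). Hist1h2bk reached an FPKM of 1 in 5 libraries, all of them KO, and so entered the test only through the genotype in which it was higher.

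Both annotated transcripts are short, 470 and 476 bases, and share 45.8% and 74.2% of their stretches of 50 bases with other histone genes, so the split of reads between copies is uncertain. Across all tested entries matched to the annotation, short transcripts were listed higher in KO livers: among the 2259 shortest the median difference was 0.25 and 19.3% rose, among the 2258 longest the median was -0.16 and 3.37% rose. With each library's trend with transcript length removed, a fit chosen after the data had been seen, Hist1h4h differed by 0.66 (adjusted p = 0.0862) and Hist1h2bk by 0.44 (adjusted p = 0.0977), and neither was called. Leaving out WT liver 3 also ended both calls (adjusted p of Hist1h4h 0.0735), and leaving out WT liver 2 ended that of Hist1h4h (adjusted p = 0.0583).

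The other abundant H4 gene, Hist1h4i, had 4.42, 4.72 and 6.23 in KO livers, against 2.86, 3.09 and 1.13 in WT livers. All KO livers were above all WT livers, and the difference of 0.91 ± 0.27 did not pass (adjusted p = 0.0541). Its second line, which belongs to the same name, held 2.82, 4.75 and 3.996 in KO livers, against 2.03, 2.06 and 1.46 in WT livers, and the sum of both lines was called (0.96, adjusted p = 0.0352). The weakly listed Hist1h4c averaged 0.644 ± 0.351 in KO livers and 0.166 ± 0.128 in WT livers (SD, n = 3 each; 0.48 ± 0.17, adjusted p = 0.0849). Summed over all 13 H4 genes, KO livers held 18.2 to 23.0 FPKM and WT livers 8.43 to 9.17. Hist1h4h alone made up 56.8% of the summed mean of this class over the 12 libraries. The 10 untested H4 genes summed to 2.79 to 4.39 in KO livers and 1.73 to 3.004 in WT livers, which overlapped. The separation was thus not shown for the class beyond its tested genes. Sums of the H1, H2A, H2B and H3 genes overlapped between KO and WT livers.

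The abundant H2B genes Hist1h2bc and Hist1h2bg were not called in KO over WT livers. Hist1h2bc had 122.9, 179 and 165 in KO livers, against 146, 164 and 177 in WT livers. These groups overlapped, and the difference was -0.07 ± 0.16 (adjusted p = 0.768). Hist1h2bg had 29.2, 43.0 and 46.9 in KO livers, against 55.6, 55.6 and 60.3 in WT livers. Here every KO liver was below every WT liver, yet the difference of -0.54 ± 0.18 did not pass (adjusted p = 0.0747), and with the length trend removed it did (-1.01, adjusted p = 0.0179).

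The linker gene Hist1h1c had 21.1, 46.8 and 55.3 in KO livers, against 42.5, 30.1 and 21.9 in WT livers, and the groups overlapped (0.31 ± 0.38, adjusted p = 0.576). Hist2h2aa2 averaged 5.36 ± 1.24 in KO livers and 3.23 ± 1.18 in WT livers (SD, n = 3 each; 0.60 ± 0.24, adjusted p = 0.109). It shares all of its sequence, in stretches of 50 bases, with another histone gene, so the split of reads between copies is uncertain. Hist3h2a (0.25), Hist1h1d (0.12), Hist1h2bj (0.27) and the joined entry (-0.10) had adjusted p from 0.473 to 0.719. The other H2B genes were Hist1h2ba, a testis-type H2B, Hist1h2bq, Hist1h2bl, Hist1h2bh and Hist1h2bn, and 0 of them were called.

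**Figure D2:**
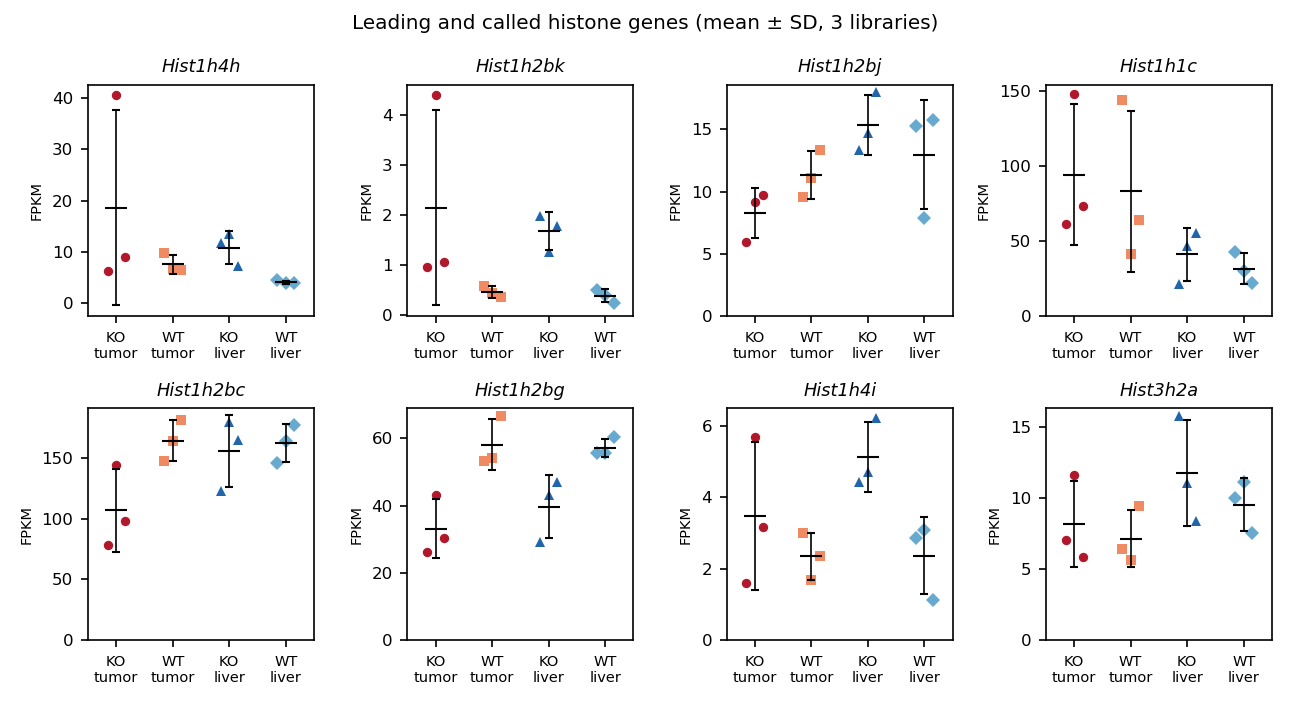
FPKM of 8 histone genes in each library (points), with the mean and SD of 3 libraries (black), for KO tumors, WT tumors, KO livers and WT livers from left to right. Hist1h4h and Hist1h2bk separate KO livers from WT livers, and 1 KO tumor at 40.5 lies far above the rest for Hist1h4h.

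Between KO and WT tumors, 0 of the 17 histone entries were called with limma, beside 0.0771% of all entries. An unadjusted p under 0.05 was found for 3 of the 17, and for 17.6% of all entries. Of all 11671 entries 9 passed. The members' median was 0.20, against 0.02 over all entries.

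The 3 are H2B genes whose groups did not overlap, 2 lower in KO tumors, beside 10.1% of all entries, and 1 higher, beside 13.8%. The higher one, Hist1h2bk, entered the test only through KO libraries. Hist1h2bg had 26.1, 43.1 and 30.3 in KO tumors, against 53.1, 54.2 and 66.7 in WT tumors (-0.81 ± 0.23, adjusted p = 0.153). Hist1h2bc had 77.9, 144 and 98.2 in KO tumors, against 148, 164 and 181 in WT tumors (-0.66 ± 0.27, adjusted p = 0.266). For both, KO tumor 2 was the KO library closest to the WT tumors.

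Hist1h2bk had 0.966, 4.39 and 1.07 in KO tumors, against 0.587, 0.436 and 0.354 in WT tumors (0.94 ± 0.39, adjusted p = 0.2745). KO tumor 2 was far above the rest. Without KO tumor 2 the difference was 0.47 (adjusted p = 0.346).

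Hist1h4h had 6.21, 40.5 and 9.09 in KO tumors, against 9.73, 6.68 and 6.46 in WT tumors. The other 2 KO tumors lay near the range of the WT tumors, and the difference of 0.77 ± 0.62 had an adjusted p of 0.571. Fitted in 1 model of all 12 libraries, the KO effects in tumor and in liver were not shown to differ for any histone entry. That is 0 of 17 called, beside 2.08% of all entries, with 0 under an unadjusted p of 0.05, beside 22.3% of all entries.

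KO tumors against KO livers gave 1 call among the histone entries. Of 17, 0 rose and 1 fell, beside 9.09% of all entries that rose and 5.17% that fell. Lower values without overlap were found for 1 entry, beside 19.8% of all entries. Hist1h2bj (chr13:22043214-22043676, plus strand), an H2B gene with hairpin letters 23 bases before its annotated end, had 5.97, 9.16 and 9.75 in KO tumors, against 13.3, 14.7 and 18.0 in KO livers. Every KO tumor lay below every KO liver (-0.83 ± 0.22, adjusted p = 0.0485). The call was kept in 1 of 6 fits that left out a library, that without KO tumor 3. It shares 59.4% of its stretches of 50 bases with other histone genes. A second line of this name is listed between 0 and 5.78 in the 12 libraries, and with both lines summed the difference was -0.69 (adjusted p = 0.148).

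Linker genes were the entries without overlap in the other direction, 2 of 17 beside 21.3% of all entries. Hist1h1c (chr13:23738808-23740367, plus strand) had 61.1, 148 and 73.5 in KO tumors, against 21.1, 46.8 and 55.3 in KO livers (1.18 ± 0.45, adjusted p = 0.117). Hist1h1d had 2.155, 7.34 and 2.096 in KO tumors, against 1.16, 1.36 and 1.22 in KO livers (0.95 ± 0.38, adjusted p = 0.129). Neither passed the test, and the 16 entries that were not called had adjusted p from 0.117 to 0.918.

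WT tumors against WT livers gave 1 call. Hist1h4h rose, and 0 of 17 fell, beside 8.01% of all entries that rose and 8.96% that fell. It was at 9.73, 6.68 and 6.46 in WT tumors, against 4.47, 3.91 and 3.996 in WT livers (0.73 ± 0.17, adjusted p = 0.0285). The groups did not overlap, as in 18.5% of all entries in this direction, and 0 of 17 were lower without overlap, beside 23.8%. With the length trend removed the difference was 0.46 (adjusted p = 0.179), and leaving out any of the WT livers, or WT tumor 2, also ended the call.

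Hist1h1c had 144, 41.5 and 63.7 in WT tumors, against 42.5, 30.1 and 21.9 in WT livers. WT tumor 1 was far above the others, WT tumor 2 lay just below the highest WT liver, and the difference of 1.23 ± 0.45 did not pass (adjusted p = 0.1005). Hist1h1d was likewise led by WT tumor 1, at 8.11, 0.930 and 1.77 in WT tumors, against 1.83, 0.586 and 0.987 in WT livers (0.82 ± 0.55, adjusted p = 0.325). Hist1h2bc and Hist1h2bg differed by 0.02 and 0.01 (adjusted p = 0.941 and 0.944). The 16 entries that were not called had adjusted p from 0.1005 to 0.944.

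The 2 tested H2A genes were called in none of the 4 comparisons. Hist3h2a had 7.004, 11.6 and 5.85 in KO tumors, 6.38, 5.62 and 9.41 in WT tumors, 15.7, 11.02 and 8.40 in KO livers and 10.01, 11.1 and 7.496 in WT livers. Hist2h2aa2 had 2.67, 5.85 and 6.58 in KO tumors, 8.03, 2.37 and 3.10 in WT tumors, 3.96, 5.80 and 6.32 in KO livers and 2.84, 4.56 and 2.30 in WT livers. For both genes all 4 groups overlapped.

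Both tumor comparisons depend on how libraries are scaled to each other. Rescaling each library to a common sum (TPM) put the median of all entries at 0.36 for KO tumors over KO livers, against -0.02 with FPKM, and at 0.23 for WT tumors over WT livers, against -0.04. Entries called higher then made up 86.4% of the calls in the KO pair, against 63.8% with FPKM, and 80.3% in the WT pair, against 47.2%. On that scale Hist1h2bj differed by -0.45 (adjusted p = 0.1675) and Hist1h1c by 1.62 (adjusted p = 0.0403) in the KO pair. The KO pair and the WT pair share libraries with both KO over WT comparisons, and their values are given side by side only.

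**Figure D3:**
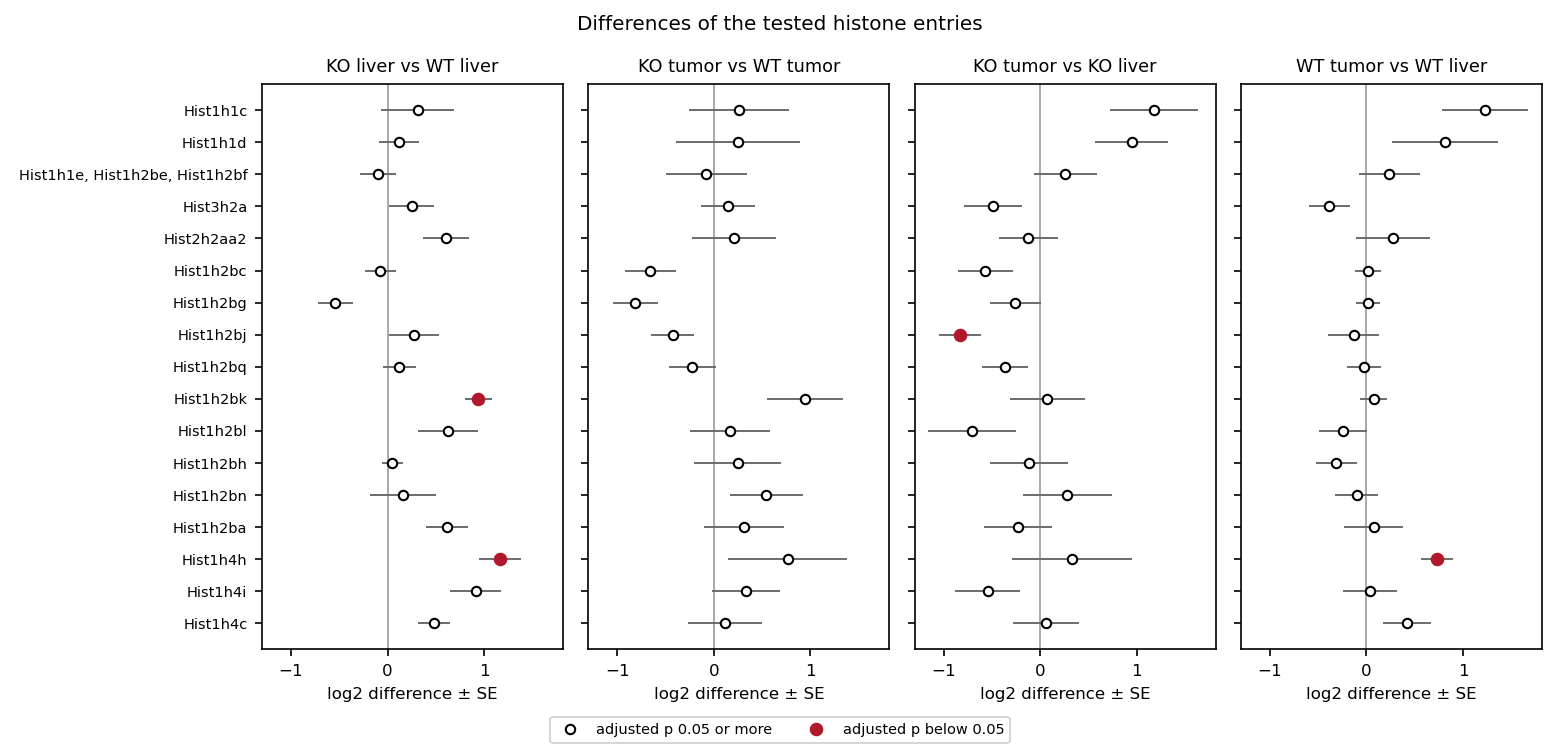
Log2 differences with SE of the 17 tested histone entries in 4 comparisons, each fitted on its own 6 libraries. Filled points are the 4 calls: Hist1h4h (1.16) and Hist1h2bk (0.94) in KO over WT liver, Hist1h2bj (-0.83) in KO tumor over KO liver, and Hist1h4h (0.73) in WT tumor over WT liver.

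Below the filter, 1 library stood apart. The 48 untested histone genes summed to 30.7 FPKM in KO tumor 2, against 5.53 to 12.2 in the other 11 libraries. KO tumor 2 had the highest value for 25 of the 46 of them that were listed above 0 (54.3%), beside 31.4% of the 6832 other entries below the filter, and for 33 of all 63 histone entries listed above 0. In it 13 untested genes reached an FPKM of 1, against at most 2 in any other library.

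Members of every class took part. Hist1h4a, an H4 gene, was at 0.152, 3.18 and 0.137 in KO tumors, against at most 0.570 elsewhere. It had 0.458, 0.536 and 0.570 in KO livers, against 0, 0.119 and 0.144 in WT livers. Hist1h3g, an H3 gene, was at 1.46 in KO tumor 2 and at 0 in the other 2 KO tumors and all 6 livers. The 11 H3 genes together summed to 0.962, 5.78 and 0.377 in KO tumors, 2.01, 1.85 and 2.82 in WT tumors, 0.776, 1.01 and 1.05 in KO livers and 1.15, 1.02 and 1.18 in WT livers. For H3, then, WT tumors lay above all livers, while 1 KO tumor lay above all livers and 2 lay within their range or below it. The best-listed H3 gene, Hist1h3d, had 0.111, 0.649 and 0.202 in KO tumors, 0.256, 0.484 and 0.755 in WT tumors, 0.224, 0.101 and 0.286 in KO livers and 0.324, 0.263 and 0.326 in WT livers, which overlapped. Hist1h3e and Hist1h3b followed, with at most 0.557 and 0.820 in any library.

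Of H2A, Hist1h2ao had 0.305, 1.998 and 0.561 in KO tumors, 0.428, 0.580 and 0.651 in WT tumors, 0, 0.114 and 0.164 in KO livers and 0, 0 and 0.247 in WT livers. All 6 tumors lay above all 6 livers, and how many entries separate this way was not counted. A second line of Hist1h2ao was at 0 in all livers and in WT tumor 2, and at most at 0.285 in the other tumors. Hist1h2ao shares 93.5% of its stretches of 50 bases with other histone genes, so the split of reads between copies is uncertain. The H4 gene Hist1h4d had 0.614, 1.69 and 0.725 in KO tumors, 0.935, 0.476 and 0.175 in WT tumors, 0.661, 0.530 and 0.697 in KO livers and 0.5999, 0.611 and 0.436 in WT livers, and only KO tumor 2 reached 1. The H1 gene Hist1h1a was at 1.001 in KO tumor 2, at most 0.571 elsewhere, and at 0 in 7 libraries. Hist1h2bm and Hist3h2ba, of the H2B class, were also highest in KO tumor 2.

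Most genes of the S phase and mitosis list were highest in the same library, 29 of 41. Pcna, Mcm4, Uhrf1 and E2f1 were among the others and peaked in KO tumor 1. Mki67, which encodes the proliferation marker Ki-67, was at 3.07, 5.82 and 1.15 in KO tumors, 2.46, 1.49 and 1.77 in WT tumors, 0.110, 0 and 0.00522 in KO livers and 0.0865, 0.363 and 0.315 in WT livers. Top2a, a topoisomerase of replicating cells, was at 3.59, 6.62 and 1.19 in KO tumors, 2.70, 2.49 and 2.87 in WT tumors and under 0.5 in all livers. All tumors were above all livers for both genes. KO tumor 1 held the second highest value of both, but its untested histone genes summed to 6.93. The summed FPKM of 9 T and NK cell markers was also highest in KO tumor 2, at 29.8, against at most 15.9 in any other library. Of the 9, 8 were highest there, as were 4 of 6 stellate markers, 2 of 6 endothelial markers and at most 1 of each other marker list. So were 6 of 11 replacement histone genes, listed below, and 31.4% of the 6832 other entries below the filter. The share over all tested entries was not counted. The part of dividing cells and of lymphocytes in the histone values was not tested.

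**Figure D4:**
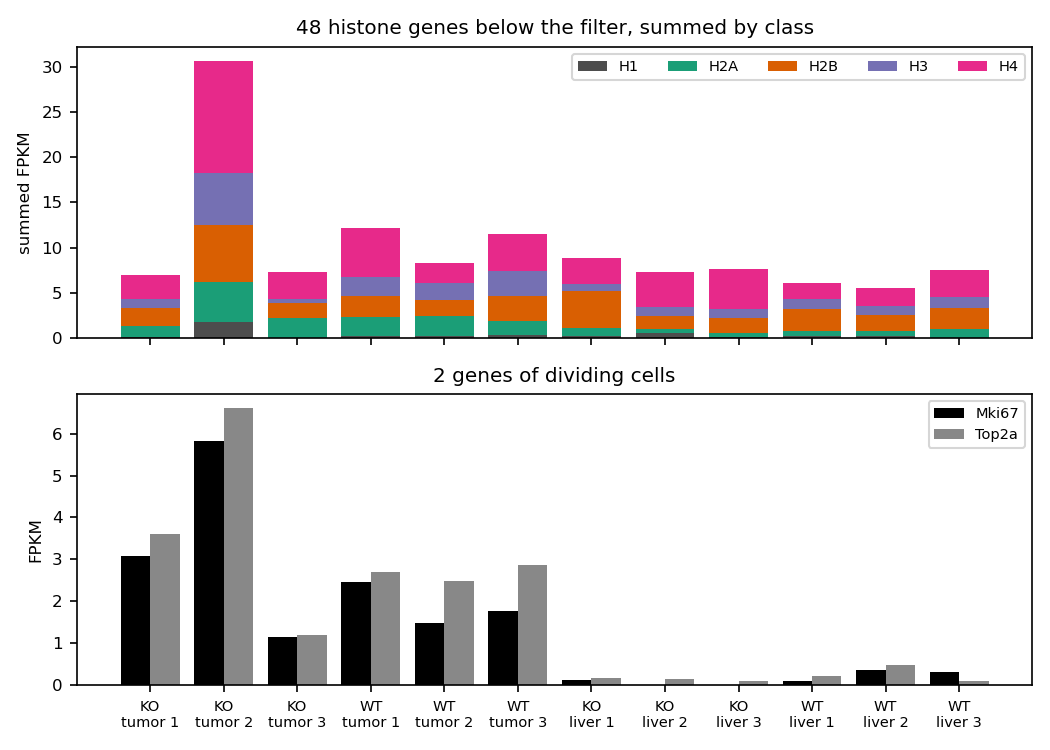
Top, summed FPKM of the 48 histone genes below the filter in each of the 12 libraries, stacked by class, with 30.7 in KO tumor 2 and 12.2 or less in the others. Bottom, FPKM of Mki67 and Top2a in the same libraries, with KO tumor 2 highest at 5.82 and 6.62.

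A list of 41 genes of S phase and mitosis, chosen with results of these data known, had 37 tested members. WT tumors over WT livers called 24 higher and 0 lower, beside 8.01% and 8.96% of all entries. The median was 0.84, against -0.04 over all entries. Of the 24, 12 reached an FPKM of 1 in tumors only and so entered the test through the side where they were higher, and 13 were kept in all 6 fits without a library. Among them were Birc5 (2.22), Ccna2 (1.93), Cdk1 (1.79) and Aurkb (1.54), which act in mitosis, each with an adjusted p of at most 0.00222. KO tumors over KO livers called 15 higher, beside 9.09% of all entries, with a median of 1.18, against -0.02 over all entries. Of the 15, 9 reached an FPKM of 1 in tumors only, and 0 were kept in all 6 fits without a library. Among them were the cyclin gene Ccnb2 (2.27), the ligase gene Lig1 (1.69), the helicase subunit gene Mcm2 (1.53) and the licensing gene Cdt1 (1.03). The 1 lower call, beside 5.17% of all entries, was Mcm10, listed at 82.3 to 184 in KO livers, far above other replication genes. On the TPM scale 22 of the list were called higher in KO tumors over KO livers and 26 in WT tumors over WT livers. KO livers over WT livers called 1 higher, beside 9.33% of all entries, and 0 lower, beside 8.77%. It was the primase gene Prim1 (0.45 ± 0.12, limma adjusted p = 0.0448), and leaving out any 1 library ended that call. KO tumors over WT tumors called 0. Pcna, the replication clamp, had 22.2 ± 0.71 in KO livers and 21.6 ± 1.28 in WT livers (SD, n = 3 each). In the same comparisons 0 histone entries were called higher in KO tumors and 1 in WT tumors.

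Genes that make and process histone mRNA were called in both directions in normal liver. Of 18 tested members, 3 rose and 4 fell in KO livers, beside 9.33% and 8.77% of all entries, with a median of -0.26. Slbp, whose protein binds the hairpin, had 5.73, 5.46 and 5.89 in KO livers, against 3.70, 3.35 and 3.32 in WT livers (0.59 ± 0.11, adjusted p = 0.0210). Lsm10, a subunit of the U7 particle, had 23.5, 22.2 and 26.5 in KO livers, against 11.1, 8.55 and 8.45 in WT livers (1.28 ± 0.14, adjusted p = 0.00675). Neither pair of groups overlapped, and both calls held with the length trend removed. That of Lsm10 was kept in 6 of 6 fits without a library, while that of Slbp was lost without KO liver 2, KO liver 3, WT liver 2 or WT liver 3 (adjusted p up to 0.0760). The third was the uridylyltransferase gene Zcchc6 (0.49, adjusted p = 0.0442), whose call was lost in all 6 such fits.

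Npat, the coactivator of histone gene transcription, fell to 0.495, 0.596 and 0.441 in KO livers, against 1.11, 1.03 and 0.873 in WT livers (-0.41 ± 0.10, adjusted p = 0.0358). Sympk, a scaffold of the 3′-end cutting machinery, had 13.3, 7.95 and 11.8 in KO livers, against 17.9, 20.5 and 17.0 in WT livers (-0.72 ± 0.19, adjusted p = 0.0425). Ncbp1, of the cap-binding complex (-0.54), and the polyadenylation factor gene Fip1l1 (-0.51) fell as well. Leaving out any 1 of the 6 livers ended the call of Npat (adjusted p 0.0646 to 0.102), and those of Sympk, Ncbp1 and Fip1l1 were kept in 1 of 6 such fits each. With the length trend removed, 2 rose and 1 fell of 16.

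In WT tumors Slbp had 8.29, 6.77 and 7.84, against 3.70, 3.35 and 3.32 in WT livers, and rose by 0.95 ± 0.12 (adjusted p = 0.00623). In KO tumors it had 7.54, 4.87 and 5.43, against 5.73, 5.46 and 5.89 in KO livers, which overlapped (0.04 ± 0.18, adjusted p = 0.907). Lsm10 fell to 11.01, 12.9 and 16.9 in KO tumors, against 23.5, 22.2 and 26.5 in KO livers (-0.79 ± 0.20, adjusted p = 0.0406). Fip1l1 fell in WT tumors (-0.43), and in KO tumors Ncbp2 fell (-0.76) and the uridylyltransferase gene Zcchc11 rose (0.74) relative to livers of the same genotype. Of the 18 tested, 1 rose and 1 fell in WT tumors, beside 8.01% and 8.96% of all entries. In KO tumors 1 rose and 2 fell, beside 9.09% and 5.17%. The Slbp call was kept in 6 of 6 fits without a library, those of Lsm10, Ncbp2 and Zcchc11 in 1 of 6 each and that of Fip1l1 in 0. On the TPM scale no member of this list was called lower in either tumor comparison.

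**Figure D5:**
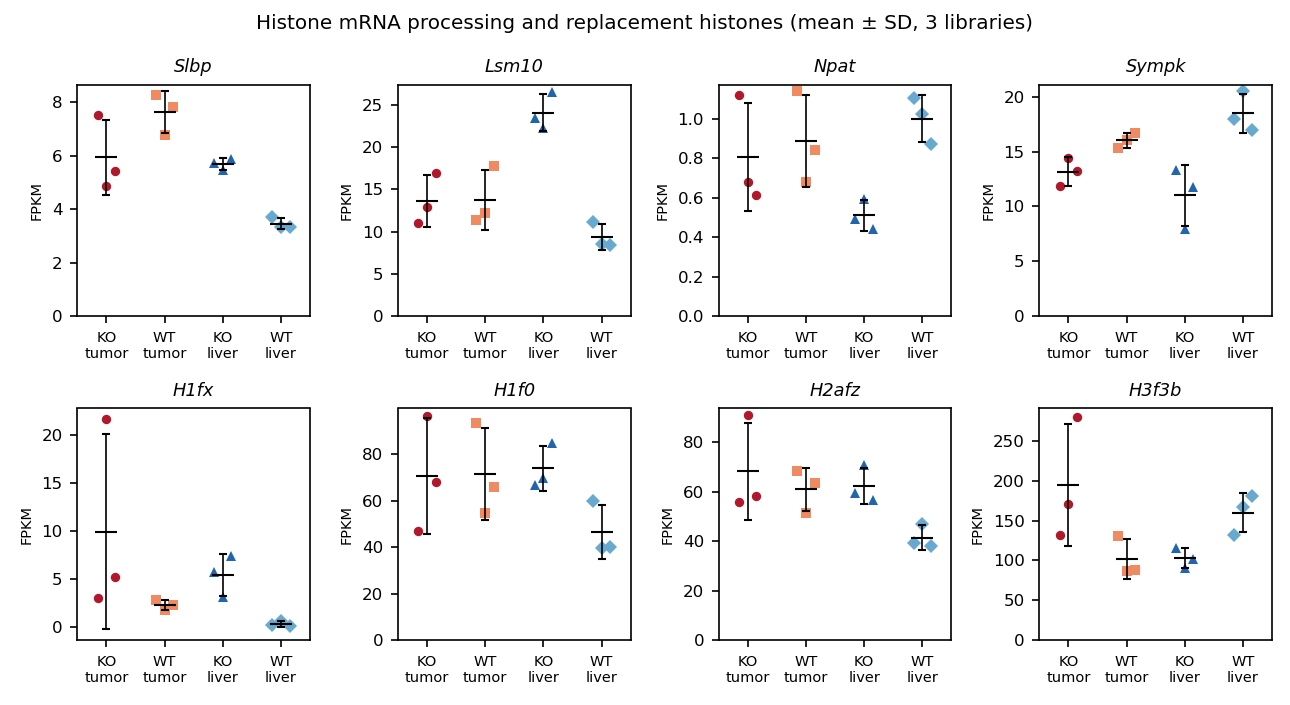
FPKM of 4 genes of histone mRNA synthesis and processing (top) and 4 replacement histone genes (bottom) in each library, with the mean and SD of 3 libraries. Slbp and Lsm10 lie higher, and Npat and Sympk lower, in KO livers than in WT livers, and H1fx is near 0 in WT livers.

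Most replacement histones are made throughout the cell cycle from ordinary tailed mRNAs, though not every gene of the list used here is. Of 10 tested, 5 rose and 1 fell in KO livers, beside 9.33% and 8.77% of all entries, with a median of 0.51. H1fx, a linker variant gene, had 5.75, 3.08 and 7.40 in KO livers, against 0.209, 0.631 and 0.0416 in WT livers (2.27 ± 0.29, adjusted p = 0.00937). H1f0, the linker variant of non-dividing cells, had 66.97, 69.9 and 85.0 in KO livers, against 60.1, 39.9 and 40.1 in WT livers (0.67 ± 0.19, adjusted p = 0.0481). Neither pair of groups overlapped.

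The H2A variant genes H2afj (0.72), H2afv (0.60) and H2afz (0.58) rose too. H3f3b, a gene of the variant H3.3, fell to 116, 90.7 and 102 in KO livers, against 132, 166 and 181 in WT livers (-0.62 ± 0.15, adjusted p = 0.0373). H3f3a, which encodes the same protein, had 120.3 ± 5.33 in KO livers and 88.6 ± 14.1 in WT livers (SD, n = 3 each; 0.45 ± 0.14, adjusted p = 0.0590). Of these 6 calls, that of H1fx was kept in all 6 fits without a library, H2afj in 5, H3f3b in 2, H1f0 and H2afz in 1 each and H2afv in 0, with adjusted p up to 0.153. With the length trend removed 2 of the 10 rose and 1 fell, and on the TPM scale 3 rose and 1 fell.

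WT tumors had 3 of 10 higher and 0 lower than WT livers, beside 8.01% and 8.96% of all entries. They were H1fx (1.34), Cenpa (1.53), which encodes the H3 variant of centromeres, and H2afz (0.55). Their calls were kept in 6, 4 and 1 of 6 fits without a library. On the TPM scale 4 were called higher in WT tumors over WT livers and 2 in KO tumors over KO livers. With FPKM, KO tumors had 0 called against KO livers or against WT tumors, with Cenpa at 1.20 ± 0.35 over KO livers (limma adjusted p = 0.0598). H1fx in KO tumors was 2.99, 21.7 and 5.16, and KO tumor 2 was again the highest library.

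Of 19 tested histone chaperone genes, 1 rose and 0 fell in KO livers, beside 9.33% and 8.77% of all entries. It is a line that joins 6430706D22Rik, A730008H23Rik and Hjurp, the chaperone of the centromeric variant (1.60, limma adjusted p = 0.0140). Its call was kept in 5 of 6 fits without a library. In KO tumors over KO livers 3 rose and 0 fell, beside 9.09% and 5.17% of all entries. They were Chaf1b, of the assembly factor CAF-1 (1.49), the H4 acetyltransferase gene Hat1 (0.80) and Cabin1, of the HIRA complex (0.89). The call of Chaf1b was kept in 4 of 6 such fits and those of Hat1 and Cabin1 in 2 each. In WT tumors over WT livers 3 rose and 1 fell, beside 8.01% and 8.96% of all entries. Asf1b (0.98), Chaf1a (0.51) and Nap1l1 (0.46) rose, and Ubn1 of the HIRA complex fell (-0.65). Asf1b and Chaf1a reached an FPKM of 1 in tumors only and so entered the test through the side where they were higher. The call of Asf1b was kept in 6 of 6 such fits, Ubn1 in 2, and Chaf1a and Nap1l1 in 1 each. On the TPM scale 7 of the 19 rose in KO tumors over KO livers and 5 in WT tumors over WT livers. Between KO and WT tumors 0 were called in any of the 4 lists. The smallest limma adjusted p of each list there belonged to Chaf1b (1.12, 0.0844), Ncbp2 (-0.75, 0.128), Lig1 (0.77, 0.201) and H3f3b (0.88, 0.235). These values did not pass.

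Markers of other cells differed between the groups. The summed FPKM of 6 B and plasma cell markers, of which 4 were tested, was 11.7 to 21.5 in KO tumors, 28.3 to 63.4 in WT tumors, 5.63 to 11.5 in KO livers and 2.84 to 5.72 in WT livers. That of 6 stellate cell markers was 131 to 189 in KO tumors, 57.6 to 70.1 in WT tumors, 66.7 to 111.0 in KO livers and 40.2 to 61.0 in WT livers, so that KO livers did not overlap WT livers, while WT tumors did. The part of all these cell types in the histone values was not tested. In bulk tissue fewer cells of a type and less RNA per cell cannot be told apart.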

How the data were processed

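The authors deposited 1 table per library with FPKM values, made with TopHat2 2.1.1 and Cufflinks 2.2.1 on build mm10 per the submitters' processing notes. The sources used here give neither program options nor the gene annotation. FPKM hold no counts, so depth and counting error are unknown. Differences were fitted with limma 3.58.1 in R 4.3.3 on log2(FPKM + 1), over 11671 entries with an FPKM of 1 in at least 3 of 12 libraries, with empirical Bayes moderation and a variance trend, each pair on its own 6 libraries and the interaction on all 12. Tests were two-sided, p-values were Benjamini-Hochberg adjusted over all entries, and a call had an adjusted p below 0.05. The fit was tested on simulated data. Repeated names were kept as separate entries in the fit. Histone members called anywhere, and up to 3 per class by mean, were named with their values, as were the 4 list genes with the smallest adjusted p in each comparison and a fixed set. Other values outside this rule were chosen after they were seen. Members and gene lists were chosen with earlier results of these data known. Lengths were matched by name for 96.7% of tested entries. Alternatives are listed with the closing results.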

Additional observations from a re-analysis of the deposited data

Results flagged for a closer look

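The interaction test over 12 libraries called 2 of 18 tested genes that make and process histone mRNA, beside 2.08% of all entries. For these 2 the KO effect differed between tumor and normal liver. Lsm10 had a KO effect of -0.01 in tumors and 1.28 in livers, a difference of -1.29 ± 0.28 (limma adjusted p = 0.0445). Lsm10 was above WT in 3 of 3 KO livers and within the WT range or below it in 3 of 3 KO tumors. Slbp had a KO effect of -0.33 in tumors and 0.59 in livers, a difference of -0.91 ± 0.21 (adjusted p = 0.0496). Slbp was above WT in 3 of 3 KO livers, and 2 of 3 KO tumors were below all WT tumors while the third lay within their range. Over the alternatives the limma adjusted p ran from 0.0123 to 0.116 for Lsm10 and from 0.0332 to 0.201 for Slbp. The call of Lsm10 was kept in 3 of 12 fits without a library and that of Slbp in 2 of 12. Among the other settings, 6 kept the Lsm10 call and 3 lost it, while 3 kept the Slbp call and 6 lost it. On the TPM scale neither was called, with differences of -1.19 (adjusted p = 0.0540) and -0.85 (adjusted p = 0.201).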

How the results depend on the processing

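Results were refitted with a pseudocount of 0.1 or 5, without the FPKM filter, with TPM rescaling, median-of-ratios scaling, 1 fit of all 12 libraries, the replicate number as a block, no variance trend, summing lines of the same name, and leaving out each library; removal of the length trend was chosen after seeing the data. Of KO over WT liver calls (2), 0 were left in the 1 fit of 12 and 0 under the replicate block, and with the length trend removed there was 1, Hist1h2bg. There were 3 with a pseudocount of 5 and 3 with lines summed, each adding Hist1h4i. With no filter there were 3, adding Hist1h4a (0.49, limma adjusted p = 0.0204). Leaving out 1 library gave 0 to 2, with 1 without WT liver 2 and 0 without WT liver 3. KO over WT tumor (0) gave 1 in the fit of 12, Hist1h2bg, and 0 to 0 without a library. KO tumor over KO liver (1) gave 0 with a pseudocount of 5, with no filter, with no variance trend and with lines summed, and 0 to 1 without a library. The TPM call there was Hist1h1c, not Hist1h2bj. WT tumor over WT liver (1) gave 4 with no filter (Hist1h4j, Hist1h1b, Hist1h2ao and Hist1h2ag), 0 in the fit of 12, 2 under the block (Hist1h4h and Hist1h1c), 2 with lines summed (Hist1h4h and Hist2h2be), 0 with the length trend removed and 0 to 1 without a library. Hist1h2bj in KO over WT liver turned to -0.23 with the length trend removed. Leaving out 1 library in this comparison gave -0.077 to 0.34 for Hist1h1d, -0.25 to 0.031 for the joined entry, -0.18 to 0.088 for Hist1h2bc and -0.026 to 0.43 for Hist1h2bj. The correlations of the deviations of samples with the same number ran from -0.28 to 0.35 over 4 comparisons and exceeded 0.1 for 1 of 12 pairs, number 1 of KO and WT tumors, so the number was taken as a name only. The block cut all KO over WT liver calls from 2113 to 153, no filter to 1355 and 1 fit to 1144, and leaving out 1 library gave 240 to 1964. The cause was not tested. Without counts, depth sets no stated limit on the weakly listed genes.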
